A study of Arabidopsis thaliana with 15 samples.

Results

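ARL (ARGOS-like, locus AT2G44080 on chromosome 2) is an Arabidopsis gene that promotes organ growth. It was read from the single probe set whose only listed gene is ARL, 267230_at, which is 1 of 22810 probe sets on the array and 1 of the 15912 that were tested. The samples were 15 Affymetrix arrays of RNA from whole seedlings, grown for 5 days in the light on solid medium with 1% sucrose, in 5 genotypes with 3 biological replicates each. All plants were of the WS2 ecotype, which without any mutation served as wild type. The mutant bri1-5 has a weak form of BRI1, the receptor for brassinosteroid. Each of the remaining genotypes carried bri1-5 together with a dominant suppressor, either bri1-1D, bak1-1D or brs1-1D, so bri1-5 was present in 4 of the 5 genotypes. The suppressor lines are called by the suppressor's name. The labels do not say how many independent lines stood for a suppressor or how many seedlings went into a sample.

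Brassinosteroids are plant steroid hormones that make cells elongate. They bind the receptor kinase BRI1 at the cell surface, which signals together with the co-receptor kinase BAK1 to transcription factors that raise growth genes, while BRS1 is a secreted serine carboxypeptidase that suppresses bri1 receptor mutants when overproduced. ARL is known as a gene that brassinosteroid induces, and plants that overproduce it have larger organs through greater cell expansion. Its relative ARGOS is induced by auxin and acts mainly on cell proliferation, and proteins of this family are also known to lower the response to ethylene.

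In these seedlings ARL was highest in WS2, lower in bri1-5 and bak1-1D, and lowest in brs1-1D and bri1-1D. Values are log2 expression per probe set, so a difference of 1 is a 2-fold change. The WS2 arrays read 8.22, 8.29 and 7.86. The bri1-5 arrays read 7.53, 7.65 and 7.73, and those of bak1-1D 7.63, 7.55 and 7.83. The brs1-1D arrays stood at 7.06, 7.10 and 7.11 and the bri1-1D arrays at 7.001, 6.98 and 6.98. Every bri1-1D and brs1-1D array therefore lay below every array of the other genotypes, the WS2 arrays lay above all others, and bri1-5 and bak1-1D overlapped.

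**Figure D1:**
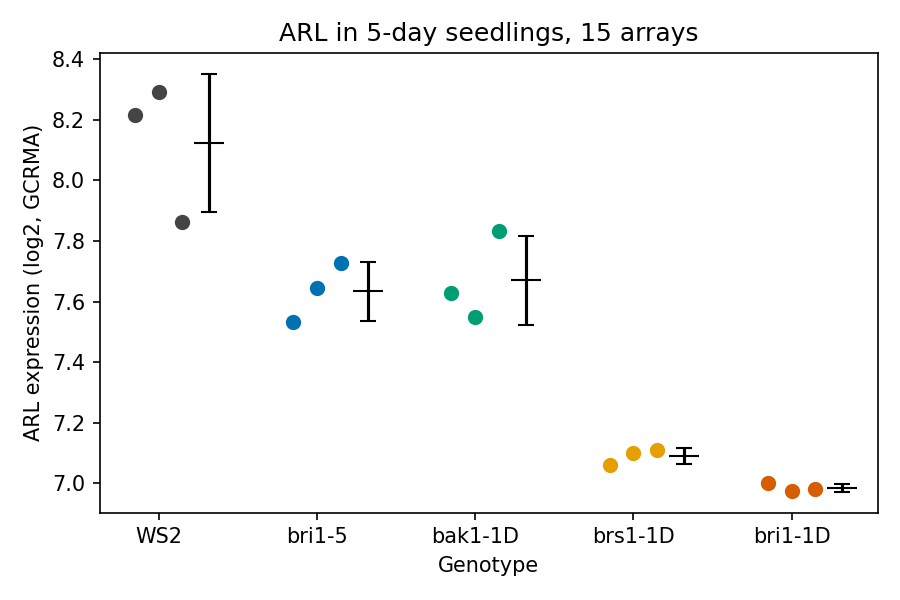
ARL expression (log2, GCRMA values, vertical axis) on each of the 15 arrays by genotype (horizontal axis), with replicates 1 to 3 from left to right and, beside them, the mean as a bar with its SD. The lowest WS2 array (7.86) stands just above the highest bak1-1D array (7.83), and the brs1-1D and bri1-1D arrays lie together near 7.

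The genotype means with their SD (n = 3) were 8.12 ± 0.23 in WS2, 7.67 ± 0.15 in bak1-1D, 7.63 ± 0.10 in bri1-5, 7.09 ± 0.03 in brs1-1D and 6.99 ± 0.01 in bri1-1D. In that order, bak1-1D and bri1-5 are neighbours that did not differ beyond their spread. The brs1-1D and bri1-1D arrays did not overlap, but the distance between them was under the shared spread of the fit. The arrays of the lines with the least ARL also varied least, and the pooled residual SD of ARL was 0.13. In a linear model over all 15 arrays (limma, 1 mean per genotype), ARL differed between genotypes (moderated F = 40.7, adjusted p = 8.43e-06 by Benjamini-Hochberg over all tested probe sets), as did 27.1% of all tested probe sets at an adjusted p under 0.05, the threshold for a call throughout.

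The first comparison asked what the weak receptor allele does to ARL. ARL fell in bri1-5 to 71.3% of its WS2 level (95% interval 61.3 to 83). The log2 difference was -0.49 ± 0.10 (SE, n = 3 against 3, limma adjusted p = 0.00433), and 8.14% of tested probe sets were called lower in this comparison. The change was moderate in size, since 7.15% of tested probe sets changed by more in either direction. Without WS2 replicate 2 the difference was -0.40 and without WS2 replicate 3 it was -0.62, the ends of the range over the 15 fits with 1 array left out, and ARL was called in each of them.

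The next comparisons asked what each suppressor does to ARL in the mutant. In bri1-1D, ARL fell below its bri1-5 level, to 63.8% of it (54.8 to 74.3). The log2 difference was -0.65 ± 0.10 (limma adjusted p = 0.0127). Only 0.176% of tested probe sets were called lower here, 28 of 15912, and ARL's fall ranked 32 by size among all falls of tested probe sets. The closest pair of arrays of the 2 genotypes was 0.53 apart. The call was lost without bri1-5 replicate 3 (-0.60, adjusted p = 0.0973), without bri1-1D replicate 3 (-0.65, adjusted p = 0.0613) and in a limma fit of these 6 arrays alone (adjusted p = 0.0531).

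In brs1-1D, ARL also fell below its bri1-5 level, to 68.6% of it (58.9 to 79.8). The log2 difference was -0.54 ± 0.10 (limma adjusted p = 0.0139), where 0.534% of tested probe sets were called lower, and 1.87% changed by more in either direction. No brs1-1D array came within 0.42 of a bri1-5 array. Without bri1-5 replicate 3 the difference was -0.50 and the call was lost (adjusted p = 0.0659).

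In bak1-1D, ARL stood at 103% of its bri1-5 level (88.1 to 119). The difference of 0.04 ± 0.10 was not called (limma adjusted p = 0.886), while 4.34% of tested probe sets were called in this comparison. The 95% interval of the log2 difference ran from -0.18 to 0.25, so it does not reach the 0.49 that separates bri1-5 from WS2. Leaving out bri1-5 replicate 1 or bak1-1D replicate 3 turned its sign (-0.015 and -0.046).

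Against wild type, ARL was lower in all 3 suppressor lines. It stood at 45.5% of the WS2 level in bri1-1D (39.1 to 52.9), a log2 difference of -1.14 ± 0.10 (limma adjusted p = 3.58e-06) where 10.3% of tested probe sets were called lower. In brs1-1D it stood at 48.9% (42 to 56.9), a difference of -1.03 ± 0.10 (limma adjusted p = 6.7e-06) beside 9.46% called lower. These were large falls within their comparisons, since 0.748% and 1.26% of tested probe sets changed by more in either direction. In bak1-1D it stood at 73.1% (62.8 to 85), a difference of -0.45 ± 0.10 (limma adjusted p = 0.0121) beside 5.14% called lower. The nearest WS2 and bak1-1D arrays were 0.03 apart, and that call was lost without WS2 replicate 2 (-0.37, adjusted p = 0.0658) or without bak1-1D replicate 2 (-0.39, adjusted p = 0.0565). All of these comparisons share the WS2 or the bri1-5 arrays and are not independent of each other.

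Compared directly with each other, the suppressor lines differed. ARL was higher in bak1-1D than in bri1-1D by 0.68 ± 0.10 (limma adjusted p = 5.86e-04), where 5.85% of tested probe sets were called higher. It was higher in bak1-1D than in brs1-1D by 0.58 ± 0.10 (limma adjusted p = 0.00258), beside 3.99% called higher. Between brs1-1D and bri1-1D the difference of 0.10 ± 0.10 was not called (limma adjusted p = 0.654), and its interval ran from -0.11 to 0.32. In that comparison 2.17% of tested probe sets were called. In all, 8 of the 10 comparisons of ARL were called and the arrays of 9 did not overlap. The share of all tested probe sets without overlap was not computed. An exact permutation test of 3 arrays against 3 cannot give a two-sided p below 0.1, the value that each of those 9 reached.

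**Figure D2:**
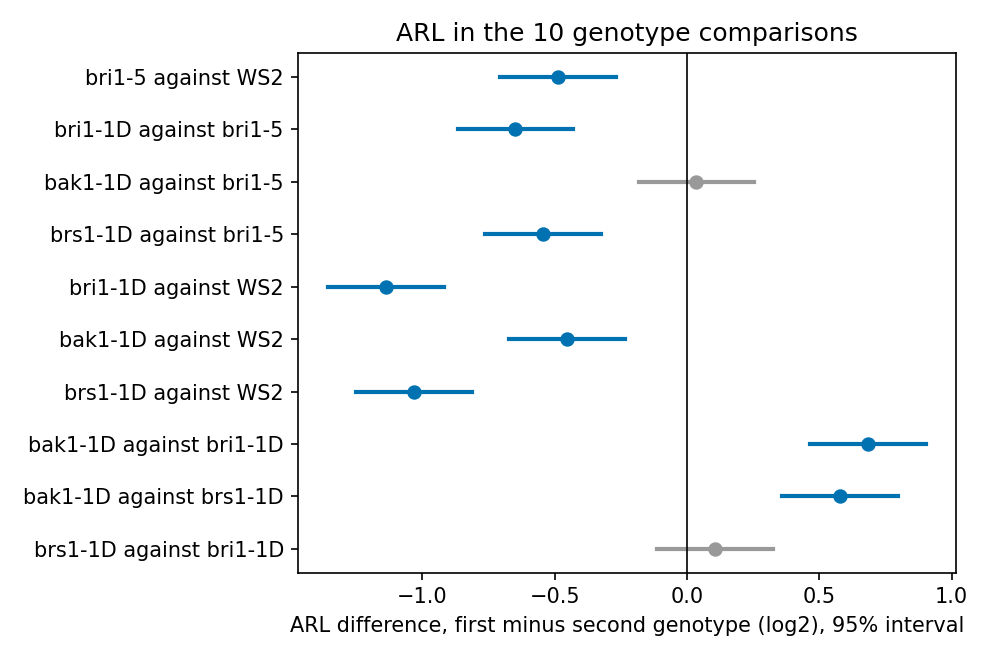
Difference in ARL between the first and the second named genotype (log2, horizontal axis) in each of the 10 comparisons (vertical axis), with points for the limma estimate and lines for its 95% interval; blue marks called differences and grey those not called. The intervals of bak1-1D against bri1-5 (-0.18 to 0.25) and of brs1-1D against bri1-1D (-0.11 to 0.32) include 0.

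Array controls were compared between genotypes. The array's 25S rRNA control probe set read 6.10 to 6.27 in WS2, 6.38 to 7.30 in bak1-1D, 6.24 to 7.13 in brs1-1D, 7.01 to 7.68 in bri1-5 and 7.94 to 8.50 in bri1-1D. Over the 15 arrays it ran opposite to ARL (r = -0.64, a description over arrays that share genotypes), and with the genotype means taken off the correlation was -0.04. In brs1-1D, ARL was nearly as low as in bri1-1D while this control overlapped bri1-5 and lay below bri1-1D. The 5S rRNA control did not follow 25S. Its means were 7.07 in WS2, 6.52 in bri1-5, 6.47 in bri1-1D, 6.32 in bak1-1D and 6.51 in brs1-1D. Each mutant overlapped WS2 in it. The 25S probe set alone therefore does not stand for rRNA content, whose part in the ARL values was not tested. Controls other than rRNA also had genotypes that did not overlap. The middle ubiquitin probe set, for example, read 10.87 to 10.96 in WS2 and 11.02 to 11.05 in bri1-5. The 3' minus 5' difference of the GAPDH control probe sets, a sign of RNA integrity, was 0.00 to 0.34 on all arrays. The 3' and 5' sets of the actin and ubiquitin controls lay further apart. Their means were 10.93 and 7.42 for actin in WS2 and 10.88 and 7.38 in bri1-1D. For ubiquitin they were 12.49 and 11.29 in WS2 and 12.52 and 11.20 in bri1-1D. Differences per array were computed for GAPDH only, so RNA integrity was checked in part. Array medians over tested probe sets ran from 6.75 to 6.82.

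Organ composition could be checked with few genes. Of the fixed markers 1 of 11 for shoot, 3 of 9 for root and 0 of 7 for seed storage had a named probe set. The shoot marker RCA, the Rubisco activase gene, read 13.1 to 13.3 on every array, close to the highest value of any probe set, so it says little about organ composition. The summed level of the 3 root markers (EXPA7, EXPA18 and PYK10) lay between 11.9 and 12.1 on the log2 scale on all arrays, a sum that is nearly that of PYK10 alone. EXPA7 differed by -0.36 ± 0.16 in bri1-5 against WS2, and by 0.53 ± 0.16 in bak1-1D and 0.63 ± 0.16 in brs1-1D against bri1-5. EXPA18 differed by -0.35 ± 0.14, 0.35 ± 0.14 and 0.33 ± 0.14 in the same comparisons. The root hair expansin gene EXPA7 was higher in brs1-1D and in bak1-1D than in bri1-1D, by 0.67 ± 0.16 and 0.57 ± 0.16 (limma adjusted p = 0.0329 and 0.029). In the first of these 2.17% of tested probe sets were called in either direction, and in the second 5.85% were called higher. None of the 3 root markers was called in bri1-5 against WS2, beside 9.45% of tested probe sets called higher and 8.14% lower. Against bri1-5 none was called in bri1-1D, bak1-1D or brs1-1D, beside 0.245%, 4.34% and 1.72% of tested probe sets called. With the replicate numbers as a block, EXPA18 was called lower in bri1-5 than in WS2 (adjusted p = 0.0197) and EXPA7 higher in brs1-1D than in bri1-5 (0.044). In genotype pairs whose numbers were not taken as paired, the block also called EXPA18. It was higher in bak1-1D than in bri1-5 (limma adjusted p = 0.0488) and bri1-1D (0.0216), and lower in bri1-1D than in WS2 (0.0127). The part of these root genes in the ARL values was not tested. Whole seedlings cannot tell fewer ARL-expressing cells from less ARL RNA per cell.

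ARL was then set beside other genes that brassinosteroid induces. Of 22 listed genes, 6 were tested: ARL, EXO, which codes for an extracellular protein needed for leaf and root growth, the expansin genes EXPA8 and EXPA4, whose products loosen cell walls, XTH19, a xyloglucan-modifying enzyme, and the tubulin gene TUB1. In bri1-5 against WS2, 5 of the 6 were called lower, as were 8.14% of all tested probe sets, and EXPA4 was not called (-0.04 ± 0.10). The median change was -1.13, against 0.02 over all tested probe sets. The count and the median include ARL itself. The list was chosen with earlier results of these data known, so both are descriptions. Among the 5, the log2 changes were -2.26 for EXO, -1.95 for EXPA8, -1.29 for XTH19, -0.97 for TUB1 and -0.49 for ARL, so ARL changed least.

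The same genes were then compared between each suppressor line and bri1-5. In bak1-1D against bri1-5, EXO rose by 1.64 ± 0.18, EXPA8 by 1.1 ± 0.18, XTH19 by 0.52 ± 0.14 and TUB1 by 0.41 ± 0.11, which are 4 of the 6 genes where 2.94% of tested probe sets were called higher, and ARL was not called. The calls of XTH19 and TUB1 ended when any 1 of 9 or 10 of the 15 arrays was left out (limma adjusted p up to 0.17 and 0.151), and without the filter on low values 2 of the 6 were called. In bri1-1D and in brs1-1D, 1 of the 6 was called, ARL, lower each time, where 0.176% and 0.534% of tested probe sets were called lower. EXO stood at -0.31 ± 0.18 in bri1-1D and -0.46 ± 0.18 in brs1-1D, and EXPA8 at 0.59 ± 0.18 and 0.17 ± 0.18. XTH19 differed by -0.10 ± 0.14 and -0.23 ± 0.14, and TUB1 by 0.25 ± 0.11 and 0.10 ± 0.11. EXPA4 stood at 0.03 ± 0.10, 0.02 ± 0.10 and, in bak1-1D, 0.17 ± 0.10. None of these differences in bri1-1D and brs1-1D, nor that of EXPA4 in bak1-1D, was called by limma.

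Whether ARL and another gene changed by different amounts was read within arrays, as the ARL value minus that gene's value. For EXO this difference was -0.19 to 0.70 on the bri1-5 arrays and -1.70 to -0.80 on those of bak1-1D, so the groups did not overlap and ARL's change minus that of EXO was -1.60 on the log2 scale. For TUB1 it was -0.11 to 0.16 in bri1-5, -1.02 to -0.68 in bri1-1D and -0.64 to -0.57 in brs1-1D, so that ARL's change minus that of TUB1 was -0.90 and -0.64. Of 16 such comparisons (4 genes, 4 genotype pairs), 14 did not overlap and reached the smallest exact two-sided permutation p of 0.1 (0.114 after Benjamini-Hochberg adjustment). The exceptions were EXO in bri1-1D (exact p = 0.4) and in brs1-1D (exact p = 1), both against bri1-5. EXPA4 was not compared in this way. All 16 comparisons use the ARL values and share arrays, so they are not independent of each other. How often other pairs of genes fail to overlap was not computed.

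**Figure D3:**
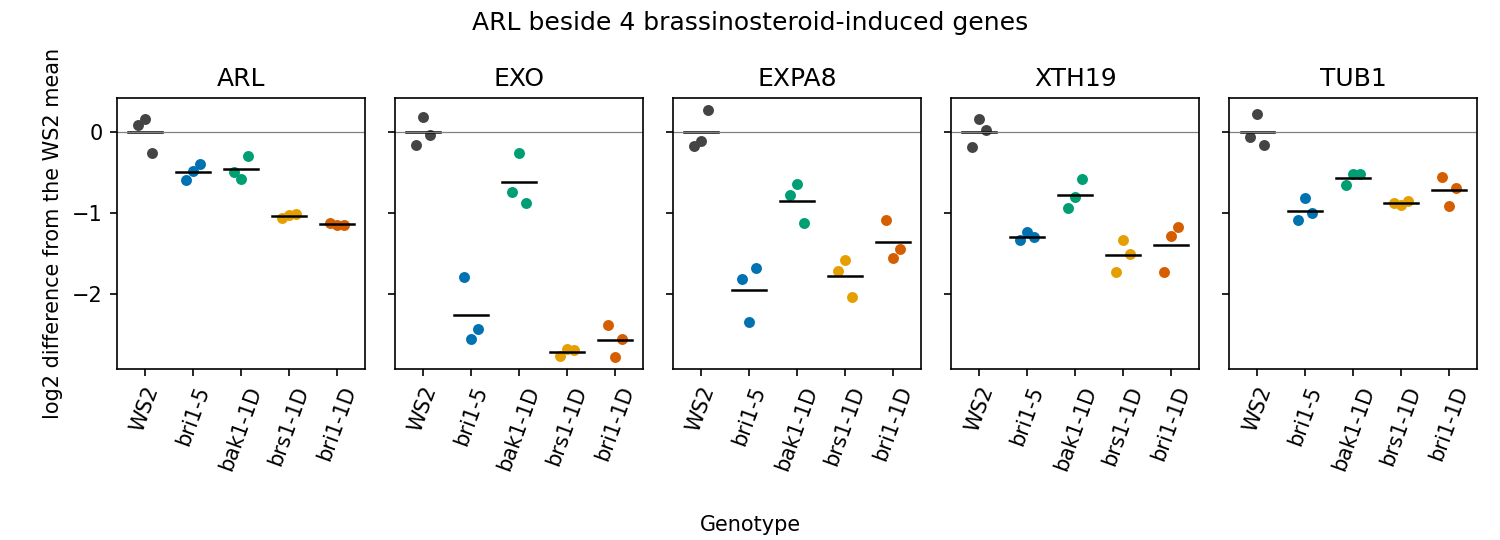
ARL and the brassinosteroid-induced genes EXO, EXPA8, XTH19 and TUB1 as the log2 difference of each array from that gene's WS2 mean (vertical axis) in the 5 genotypes (horizontal axis), with a point for each array and a black line for the genotype mean. In bak1-1D the other 4 genes stand above their bri1-5 means by 0.41 to 1.64 and ARL by 0.04.

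The relatives and the wider pathways of ARL were covered thinly. Of the 4 listed members of the ARGOS family only ARL had a named probe set, so ARGOS and its other relatives were not analysed here. Of 31 listed regulators of organ size, 3 were tested. AN, which codes for a regulator of leaf cell shape, was the 1 called in bri1-5 against WS2 (0.46 ± 0.07, limma adjusted p = 5.59e-04), where 9.45% of tested probe sets were called higher. AN stayed higher than WS2 in bri1-1D (0.35), bak1-1D (0.39) and brs1-1D (0.23). UBP15, a ubiquitin-specific protease gene that promotes organ growth, was not called in any comparison. None of the 3 was called by limma in a suppressor line against bri1-5, where 0.245% of tested probe sets were called in bri1-1D, 4.34% in bak1-1D and 1.72% in brs1-1D. Of these 9 differences, 3 had an unadjusted p under 0.05, a looser limit whose share over all tested probe sets was not computed. CYP78A9, a cytochrome P450 gene that enlarges organs when overexpressed, was near the limit in brs1-1D against bri1-5 (0.49 ± 0.12, adjusted p = 0.0572) and was called there with the replicate numbers as a block (adjusted p = 0.0442) and with array median centring. It was called higher in brs1-1D than in WS2 (0.37 ± 0.12, limma adjusted p = 0.0476), where 1735 of 15912 tested probe sets were called higher. CYP78A9 read near the low value limit of log2 4, with means from 4.03 in bri1-5 to 4.51 in brs1-1D.

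Of 28 listed ethylene genes, 3 were tested. EIN3, the main transcription factor of ethylene signalling, rose by 0.27 ± 0.08 in bri1-5 against WS2 (limma adjusted p = 0.0359), where 9.45% of tested probe sets were called higher, a call lost in 5 of the 15 fits with 1 array left out (adjusted p up to 0.11 without WS2 replicate 1). RTE1, which promotes the activity of the ethylene receptor ETR1, and its homologue RTH were not called in any comparison. In the suppressor lines against bri1-5, 0 of the 3 were called by limma, beside 0.245%, 4.34% and 1.72% of tested probe sets called in bri1-1D, bak1-1D and brs1-1D. Of the 9 differences, 2 had an unadjusted p under 0.05, and the share over all tested probe sets at that looser limit was not computed.

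Of 22 listed auxin response genes, 4 were tested. GH3.3, which codes for an enzyme that conjugates auxin to amino acids, fell in bri1-5 against WS2 by 0.86 and fell again in bri1-1D against bri1-5 (-0.46 ± 0.09, limma adjusted p = 0.0357), as ARL did. In these comparisons 8.14% and 0.176% of tested probe sets were called lower. That second call was lost with the replicate numbers as a block (adjusted p = 0.0564), in a fit of the 2 genotypes alone (0.168) and in 6 of the 15 fits with 1 array left out (adjusted p up to 0.159 without bri1-1D replicate 3). Unlike ARL, GH3.3 was called higher in bak1-1D than in bri1-5 (0.35, adjusted p = 0.0303), beside 2.94% of tested probe sets. That call was lost in 5 fits with 1 array left out (up to 0.122 without bak1-1D replicate 1) and in a fit of the 2 genotypes alone (0.0526), and in brs1-1D GH3.3 was not called (0.21 ± 0.09). WES1, a gene of the same enzyme family, rose in bri1-5 (0.89) and was not called in a suppressor line against bri1-5. IAA29, an auxin-induced repressor gene, and LBD16, a transcription factor gene of lateral root formation, were called in none of these 4 comparisons.

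Genes with a pattern like that of ARL were sought among the 8660 other tested probe sets with 1 listed gene, by Pearson's r of the log2 values over the 15 arrays. These correlations are descriptions over arrays that share genotypes, and r exceeded 0.8 for 72 genes and was under -0.8 for 90. The 6 most alike were AT2G35880 (r = 0.92), SKU5 (0.919), AT4G31000 (0.904), AT1G22330 (0.9), AT5G15320 (0.9) and BZIP61 (0.891). SKU5 codes for a glycoprotein of the cell surface that affects the direction of root growth, and BZIP61 for a bZIP transcription factor. With the genotype means taken off, r was 0.835 for SKU5 and 0.643 for AT1G22330, and from -0.149 to 0.423 for the other 4. AT1G22330 read near or under the low value limit of log2 4, with means of 4.04 in bri1-5, 3.74 in bri1-1D and 3.73 in brs1-1D. AT4G31000 was also low, with means from 4.43 in bri1-1D to 5.24 in WS2. The choice depended on the measure, as 3 of the 6 were also among the 6 highest by Spearman's rho and 0 among the 6 highest by r over the 5 genotype means. It also shifted with single arrays, with 3 of the 6 kept without WS2 replicate 1 or without bri1-1D replicate 1. Unlike ARL, 0 of the 6 were called by limma in bri1-1D or in brs1-1D against bri1-5. In these comparisons 0.245% and 1.72% of tested probe sets were called.

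SKU5 read 9.70, 9.91 and 9.57 in WS2, 9.34, 9.44 and 9.36 in bri1-5, and 9.51, 9.36 and 9.65 in bak1-1D. It read 9.20, 9.25 and 9.21 in bri1-1D and 9.01, 9.005 and 9.05 in brs1-1D. The lowest levels were thus in the same lines as for ARL, with brs1-1D and bri1-1D in the reverse order. SKU5 was chosen for its r over these same arrays, so a shared order is partly given by the choice. Against bri1-5 it was not called in bri1-1D (-0.16 ± 0.09, limma adjusted p = 0.593) or in brs1-1D (-0.36 ± 0.09, 0.0577). BZIP61 read 6.53, 6.88 and 6.64 in WS2, 5.88 to 6.06 in bri1-5, 6.20 to 6.55 in bak1-1D, 5.44 to 5.93 in bri1-1D and 5.32 to 5.59 in brs1-1D. Unlike those of ARL, its WS2 and bak1-1D arrays overlapped.

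The 3 most opposite genes were AT5G55530 (r = -0.946), AT1G20070 (-0.939) and AT4G28140 (-0.937), the last of which codes for a transcription factor of the ERF/DREB family. AT4G28140 read 7.31, 6.24 and 7.54 in WS2, 8.66, 7.80 and 8.41 in bri1-5 and 8.50, 8.79 and 8.55 in bak1-1D. It was highest where ARL was lowest, with 9.89, 9.58 and 9.27 in bri1-1D and 9.42, 9.74 and 9.66 in brs1-1D. Against bri1-5, limma called 0 of the 3 in bri1-1D and 1 in brs1-1D, beside 0.245% and 1.72% of tested probe sets. The 1 was AT4G28140 (1.32 ± 0.27, limma adjusted p = 0.0207). That call was lost in 4 of the 15 fits with 1 array left out (up to 0.0812 without brs1-1D replicate 2). AT1G20070 was not called in brs1-1D against bri1-5 (0.95 ± 0.24, limma adjusted p = 0.0553) and was called there with the replicate numbers as a block (adjusted p = 0.048). Among the brassinosteroid-induced genes, r with ARL was 0.845 for XTH19, 0.823 for EXO, 0.693 for TUB1 and 0.613 for EXPA8. Over the 12 arrays that carry bri1-5 it was 0.673, 0.648, 0.112 and 0.135, in the same order.

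**Figure D4:**
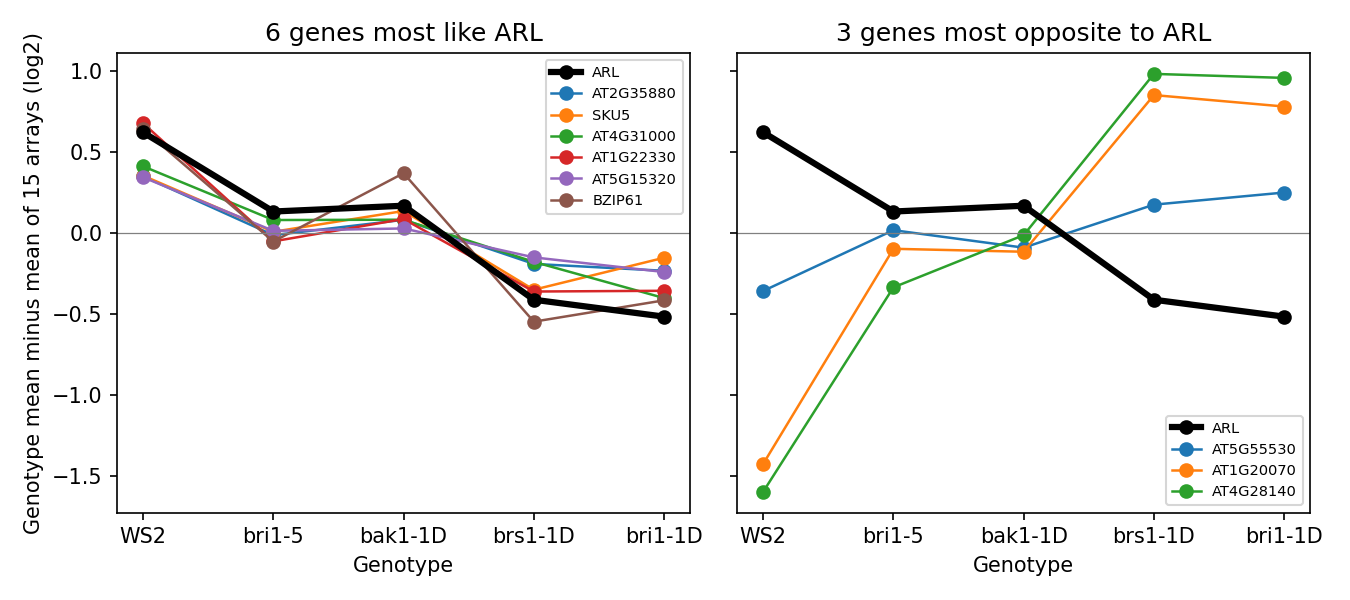
Mean of each genotype minus the mean over all 15 arrays (log2, vertical axis) by genotype (horizontal axis) for ARL (thick black line) with the 6 genes most like it (left) and the 3 most opposite to it (right). ARL and the 6 genes on the left are highest in WS2 and lowest in brs1-1D or bri1-1D, while AT4G28140 and AT1G20070 run the other way with a wider range than ARL.

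None of the 6 genes examined near ARL on chromosome 2 was called in any comparison. The 3 nearest tested genes on each side in the RefSeq gene order (TAIR10.1) were COS1, which codes for a lumazine synthase, AT2G44060, AT2G44065, AT2G44090, AT2G44120 and AT2G44200. Counted in genes from ARL, they lay at -4, -3, -2, 1, 5 and 16, in that order. In 60 comparisons (6 genes, 10 genotype pairs) limma called 0 of them, with 4 at an unadjusted p under 0.05, and the changes ran from -0.44 to 0.31. Both ends of that range belong to AT2G44200. It read near the low value limit of log2 4, with means from 4.14 in bak1-1D to 4.57 in bri1-1D. Of 15912 tested probe sets, from 39 (bri1-1D against bri1-5) to 3300 (bri1-1D against WS2) were called in a comparison. The share of all tested probe sets at an unadjusted p under 0.05 was not computed. Their r with ARL ran from -0.427 to 0.41. AT2G44090, the gene directly beside ARL, read 6.06 to 6.34 in WS2 and 6.24 to 6.48 in bri1-1D, where ARL was lowest.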

How the data were processed

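The authors deposited log2 expression values per probe set, processed with GCRMA per the submitters' processing notes, a method that subtracts background, scales the arrays to each other and combines the probes of a set. The labels give no version or settings for it. Values ran from 2.01 to 13.5, and the number of arrays limits the precision. Replicate numbers and groups came from the sample titles. In 2 lines, bak1-1D and brs1-1D, the description field gives repeat 1 for each array, against the titles, so the numbers of these arrays, and the blocked values that use them, rest on the titles alone.

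Probe sets were tested with log2 above 4 on at least 3 of 15 arrays, 64 array controls left out, in 1 model with a mean per genotype (limma 3.58.1, R 4.3.3, lmFit and eBayes, checked on simulated data). P-values were adjusted over all 15912 tested probe sets and measure the spread between 3 arrays a genotype. Genes came from the platform table, which lists 1 gene for 13513 probe sets, several for 503 and none for 8730 beside the controls. BRI1, BAK1 and BRS1 were not analysed here.

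The gene, the lists and the naming rule (the 6 genes most like ARL and the 3 most opposite, up to 4 called members a list, 3 tested neighbours a side) were chosen with earlier results of these data known. Deviations of same-numbered arrays from their genotype means correlated above 0.1 in all 3 pairs for bri1-5 with WS2 (0.104 to 0.346), bri1-1D (0.103 to 0.268) and brs1-1D (0.159 to 0.191). The numbers were taken to pair those arrays, and the blocked value is given where it changed a call. Other genotype pairs were not taken as paired, among them bri1-1D with WS2, where the lowest correlation was 0.0769. The block was still fitted over all genotypes together, so each blocked value also rests on arrays not taken as paired. A block limited to the paired genotypes was not fitted. The main p-values come from the model without the block. Alternatives covered the block, filter, floor, scaling, variance model, array weights, a fit of 2 genotypes and leaving out each array.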

Additional observations from a re-analysis of the deposited data

Results flagged for a closer look

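Responses to the suppressors, each against bri1-5, differed between lines by the direct limma contrast. For ARL, bak1-1D lay 0.68 above bri1-1D (adjusted p = 5.86e-04) and 0.58 above brs1-1D (adjusted p = 0.00258). For EXO, bak1-1D lay 1.95 above bri1-1D and 2.09 above brs1-1D. For XTH19 these differences were 0.62 and 0.75, and for EXPA8 bak1-1D lay 0.93 above brs1-1D. In every one of these, all 3 bak1-1D arrays stood above all 3 arrays of the other line. The share of tested probe sets without such overlap was not computed. Of all tested probe sets, 5.85% were called higher in bak1-1D than in bri1-1D and 3.99% higher than in brs1-1D. Not called were EXPA8 in bak1-1D against bri1-1D (0.51, adjusted p = 0.0861, overlapping arrays) and TUB1 in bak1-1D against bri1-1D (0.16, adjusted p = 0.39) and against brs1-1D (0.31, adjusted p = 0.0956).

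Outside the tested probe sets, the 25S rRNA control read higher in bri1-1D than in the wild-type arrays, by 1.97 on the log2 scale. The 5S rRNA control did not, with means of 6.47 in bri1-1D and 7.07 in WS2.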

How the results depend on the processing

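Under the alternatives that keep all arrays, ARL kept its direction in each comparison and its side of the threshold in all but 1: in a fit of bri1-1D and bri1-5 alone the difference was -0.65 (adjusted p = 0.0531). The replicate block left every call of ARL as it was. It moved the organ size count in brs1-1D against bri1-5 from 0 to 1, as did median centring (1), the auxin count in bri1-1D against bri1-5 from 1 to 0, and it ended the call of TUB1 in bak1-1D against bri1-5 (adjusted p = 0.0528), where the numbers were not taken as paired. Without the filter on low values 2 of 4 brassinosteroid-induced calls were left in bak1-1D against bri1-5. With 1 array left out, the ARL difference ran from -0.62 to -0.40 in bri1-5 against WS2, from -0.70 to -0.60 in bri1-1D, -0.046 to 0.096 in bak1-1D and -0.60 to -0.50 in brs1-1D, each against bri1-5. The bak1-1D sign turned without bri1-5 replicate 1 (-0.015) and without bak1-1D replicate 3 (-0.046). The adjusted p of the 3 calls that were lost in such fits ran up to 0.0973 in bri1-1D and 0.0659 in brs1-1D, both against bri1-5, and 0.0658 in bak1-1D against WS2, and over the alternatives with all arrays from 0.00715 to 0.0531, 0.00922 to 0.0247 and 0.0088 to 0.0496. Against WS2 the range was -1.27 to -1.05 in bri1-1D, -0.58 to -0.37 in bak1-1D and -1.16 to -0.95 in brs1-1D. Between suppressor lines it was 0.60 to 0.74, 0.50 to 0.64 and 0.09 to 0.12, in the order bak1-1D against bri1-1D, bak1-1D against brs1-1D and brs1-1D against bri1-1D.

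Counts of called probe sets moved more. In bri1-1D against bri1-5 the count of 39 became 6 in the 2-genotype fit, 61 with array weights and 6 to 47 over the fits without 1 array. For brs1-1D against bri1-5 the count of 273 became 410 with the block, 457 with array weights and 112 to 368 with 1 array left out. In bak1-1D against bri1-5, 690 became 1256 with array weights and 321 to 736 with 1 array left out. With 1 array left out the counts were 1761 to 2922 of 2799 in bri1-5 against WS2 and 828 to 1678 of 1595 in bak1-1D against WS2. Between suppressor lines, 1611 (bak1-1D against bri1-1D) became 1071 in the 2-genotype fit and 909 to 1650 with 1 array left out, 1270 (bak1-1D against brs1-1D) 719 to 1366, and 346 (brs1-1D against bri1-1D) 136, 196 with array weights and 81 to 418. Median centring moved the share of calls that were higher from 53.7% to 41.8% in bri1-5 against WS2 and from 67.8% to 78.8% in bak1-1D against bri1-5. The cause of these shifts was not tested, and some of the fits used fewer arrays.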
